A study of Rattus norvegicus with 24 samples.

Results

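Gluconeogenesis, the making of new glucose by the liver, was followed here through 10 genes of its enzymes and of the response to fasting. They were chosen by name for these roles, but with earlier results of these data known. Their shares beside those of all genes therefore describe them and are no test. Each member matched 1 row, by its Entrez gene ID, among the 15319 gene IDs of the deposited counts. The genes are Pck1, Fbp1, G6pc1, Slc37a4, Tat, Sds, Got1, Ppargc1a, Lpin1 and Slc25a25. All 10 were detected in all 24 livers, and all passed the filter on low counts in each fit.

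The livers came from Sprague-Dawley rats, an outbred stock, that breathed PCB 52 or were sham-exposed. PCB 52 is a tetrachlorinated biphenyl, and it was delivered nose-only, in filtered air led over coated glass beads at 12 L/min. Each sex had a sham and a PCB 52 group, which made 4 groups of 6 animals. Sham animals are numbered 1 to 12 and PCB 52 animals 13 to 24, so exposure and animal order cannot be told apart. The rats arrived at 28 days of age, exposure began at 42 days in females and 39 days in males, and it ran for 4 hours a day over 28 days. What the sham animals breathed is not given in the sources used here. All rats had free access to food and water, and no fast before the liver was taken is recorded in the sources used here. The hour of collection is likewise not given in the sources used here.

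In the fasted liver, glucagon and glucocorticoids switch on the genes that turn lactate, glycerol and amino acids into glucose, and insulin after a meal switches them off. Pyruvate is turned into oxaloacetate in the mitochondrion, whose carbon leaves as malate or aspartate, phosphoenolpyruvate carboxykinase commits the carbon, and fructose-1,6-bisphosphatase and glucose-6-phosphatase carry out the last irreversible steps. Glucagon acts through cyclic AMP and the factor CREB, which binds the cyclic AMP response element (CRE), and PGC-1α, encoded by Ppargc1a, is a coactivator of this programme.

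Promoters are shown for 4 members because Pck1 and Tat moved together most closely between animals, and because Ppargc1a and Slc25a25 hold the palindromic CRE. RefSeq windows of build GRCr8 were found by gene ID for 9 of 10 members, and the 250 bases before the start are printed. The counts were made on build rn6, so these coordinates place the promoters and not the reads. Pck1 lies at chr3:182348322-182348571 on the plus strand and Tat at chr19:54856354-54856603 on the plus strand. Ppargc1a lies at chr14:63634058-63634307 on the plus strand and Slc25a25 at chr3:36116582-36116831 on the minus strand. Each sequence runs 5′ to 3′ along its gene, and capitals mark matches to the CRE letters TGACGTCA or TTACGTCA, or to their shared core TGACG on either strand, of which Tat has none.
Pck1: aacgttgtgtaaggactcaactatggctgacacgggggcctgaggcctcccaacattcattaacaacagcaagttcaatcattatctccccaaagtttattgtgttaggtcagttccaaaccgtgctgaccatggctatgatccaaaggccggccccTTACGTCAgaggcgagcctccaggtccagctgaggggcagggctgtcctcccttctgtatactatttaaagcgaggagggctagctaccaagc
Tat: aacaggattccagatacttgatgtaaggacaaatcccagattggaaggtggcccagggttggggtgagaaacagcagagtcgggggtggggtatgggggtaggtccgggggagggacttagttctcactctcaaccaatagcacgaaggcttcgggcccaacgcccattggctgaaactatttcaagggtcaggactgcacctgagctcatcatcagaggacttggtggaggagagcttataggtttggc
Ppargc1a: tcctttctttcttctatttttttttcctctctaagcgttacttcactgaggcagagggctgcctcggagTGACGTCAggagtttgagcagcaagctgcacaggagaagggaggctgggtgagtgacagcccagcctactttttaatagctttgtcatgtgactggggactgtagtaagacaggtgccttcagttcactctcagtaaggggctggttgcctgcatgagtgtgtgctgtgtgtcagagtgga
Slc25a25: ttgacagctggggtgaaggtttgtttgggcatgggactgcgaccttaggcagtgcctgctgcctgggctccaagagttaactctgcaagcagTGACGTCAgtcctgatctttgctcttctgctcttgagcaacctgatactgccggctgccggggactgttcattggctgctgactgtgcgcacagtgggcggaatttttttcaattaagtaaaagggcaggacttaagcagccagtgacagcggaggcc

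In the Pck1 window, TTACGTCA begins at position -93 from the start, and 0.807% of 33469 RefSeq windows of 300 bases hold these letters on either strand. TGACGTCA begins at -181 in Ppargc1a and at -158 in Slc25a25, and 1.83% of the windows hold it. The core TGACG, which lies inside TGACGTCA on both strands and inside TTACGTCA on the minus strand, was found in 4 of 9 members (Pck1, Ppargc1a, Slc25a25 and Slc37a4) and in 21.2% of all windows. TGTTTNC, the short FOXO core, was found in Fbp1 and G6pc1 and in 21.1% of all windows, while the longer TGTTTAC (3.78%) was in none of the 9. TGTTCT, a half-site of the glucocorticoid receptor, was found in Lpin1 alone of the 9 members and in 20.7% of all windows. GTTAAT, an HNF1 half-site, was found in G6pc1 and Pck1 (7.45% of all windows) and the TATA box TATAAA in G6pc1 alone (14.2%). Neither AAAGTCC, an HNF4 half-site (4.63%), nor TTGCGNAA for C/EBP (0.846%) was found in the 9. Every motif was searched on both strands, and a match describes letters, not binding. The windows run from 250 bases before the start to 50 after it, and sites farther away were not searched.

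Each liver gave 1 library of 6994832 to 9185511 counts, so that 1 count was worth 0.109 to 0.143 counts per 1000000 library counts (CPM). The replicates are separate animals, and p-values measure the spread between them. Hepatocyte markers (6 of 6 measured, among them Alb) summed to 142363 to 186466 CPM in every library, and the adipocyte genes Plin1 and Lep had 0 counts in all 24. In bulk liver, fewer cells of a type and less RNA per cell cannot be told apart. Animals 14 and 16 among the PCB 52 females and 13 and 15 among the PCB 52 males stood apart on the leading axis of variation within groups, with scores of 8.40 to 12.7 against at most 7.02 in any other library. The leading axis computed in females held 16.7% of their variance within groups, and that computed in males 19.9% of theirs. Each sex was scored on the axis of the other, so these shares are not those of the scores. The members' correlation with the score ran from -0.47 for Slc37a4 to 0.22 for Got1. Results without these 4 animals are given below for some members and comparisons, and not for the lists of other genes.

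**Figure D1:**
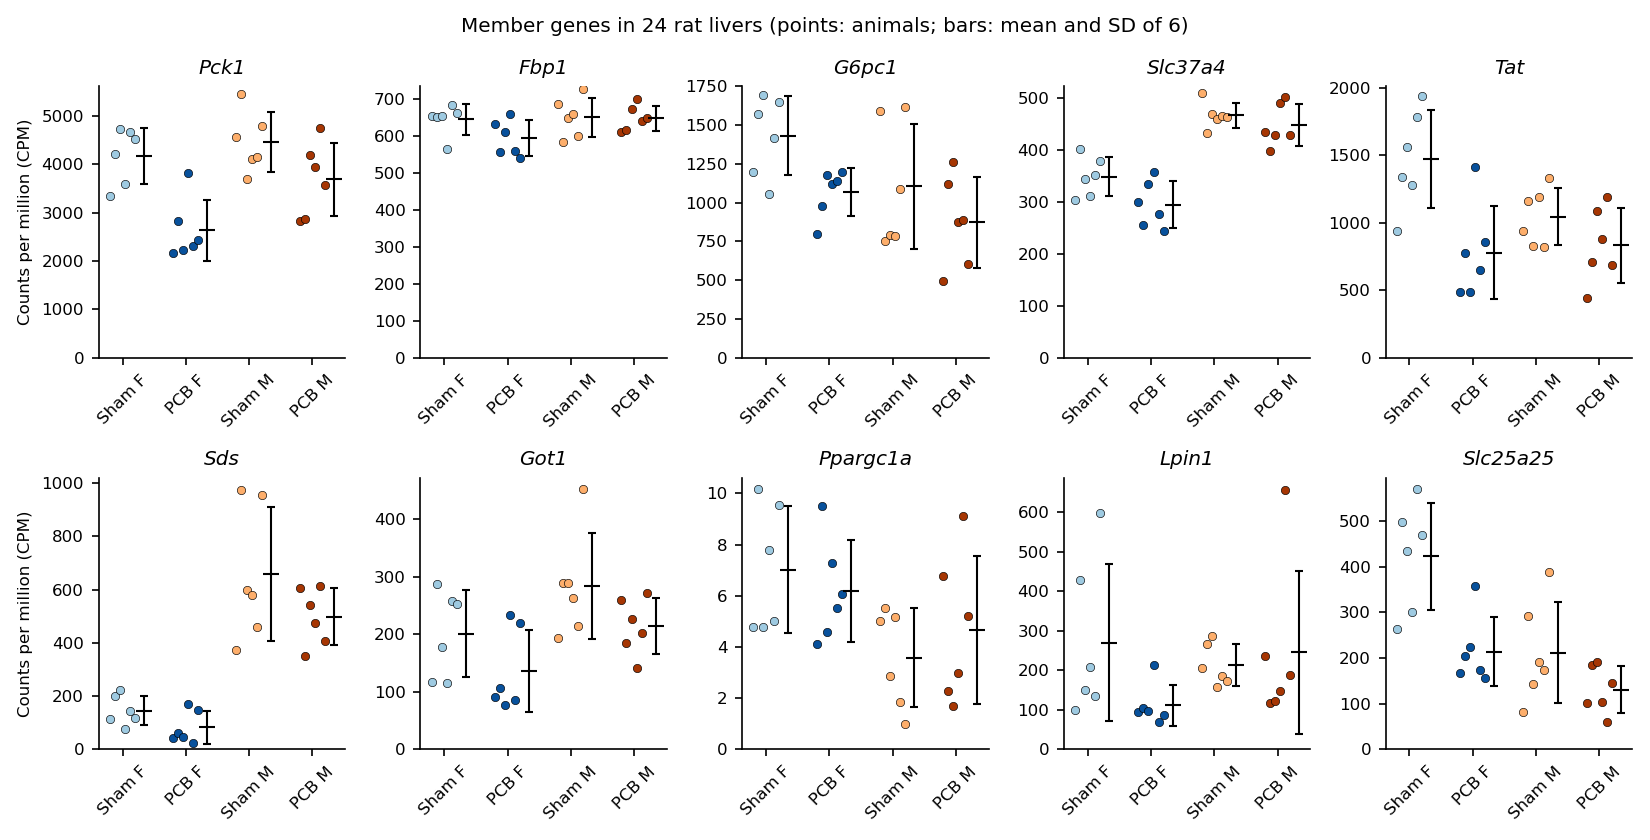
CPM (counts per 1000000 library counts, linear axis from 0) of each of the 10 genes in 24 livers, 1 point for each animal, with the mean and SD of the 6 animals of a group beside the points. In females, 5 of 6 PCB 52 animals lie below all sham animals for Pck1, Tat and Slc25a25, and Sds is lower in every female than in any male of the same exposure.

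The first question was whether the members differed between PCB 52 and sham livers of each sex. In females all 10 had a lower fitted level after PCB 52, with a median log2 fold change of -0.60, against 49.3% of all tested genes below 0 and a median of 0.00. The largest differences were in Lpin1, Slc25a25, Tat and Sds, and the smallest in Fbp1 and Ppargc1a. No member passed edgeR's quasi-likelihood test after Benjamini-Hochberg adjustment, and neither did any other gene. In males 7 of 10 members were below 0, with a median of -0.28, against 49.0% of all tested genes.

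edgeR called 0 of 10251 genes (0.0%) at an adjusted p under 0.05 in females. At an unadjusted p under 0.05 it held 6 of 10 members (Pck1, Slc25a25, G6pc1, Tat, Slc37a4 and Lpin1), against 1021 genes or 9.96% of those tested. DESeq2 called 27 genes, among them Pck1 and Slc25a25, and limma-voom with sample weights called 1 gene, Pck1. In males edgeR called 0 of 10180 genes (0.0%), DESeq2 1 gene and limma-voom 0. At an unadjusted p under 0.05 no member was held in males, against 585 genes or 5.75%. No member had exposed and sham groups that did not overlap in CPM, in females, where 34 of 10535 genes (0.323%) did, or in males, where 24 genes (0.228%) did.

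Pck1 encodes the cytosolic phosphoenolpyruvate carboxykinase, the rate-setting enzyme that turns oxaloacetate into phosphoenolpyruvate. Its level in sham females was lowest at 3339, 4359 at the median and 4724 CPM at the highest, and in PCB 52 females 2164, 2374 and 3826 CPM. All but 1 PCB 52 female lay below the lowest sham female, and the exception, animal 20 (replicate 4), lay inside the sham range. The mean was 2632 ± 632 CPM (SD, n = 6) after PCB 52 and 4171 ± 584 CPM (SD, n = 6) in sham females. On the log2 scale the fold change of Pck1 was -0.66 ± 0.13 (SE), or 1.58-fold lower, with an edgeR adjusted p of 0.172, and it ranked as number 3 of 10251 genes by p.

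The call for Pck1 in females turned on the tool and on animal 20. Its adjusted p was 9.8e-04 by DESeq2 and 0.0398 by limma-voom, and in edgeR it was 0.00721 without animal 20 and 0.485 without animals 13 to 16, where the log2 fold change was -0.63. In sham males Pck1 ran over 3702, 4350 and 5442 CPM at the lowest, median and highest, and in PCB 52 males over 2814, 3747 and 4748 CPM. Here 3 of 6 exposed animals lay below every sham male, and the log2 fold change of -0.25 ± 0.13 had an edgeR adjusted p of 0.829. Animals 13 and 15 are 2 of those 3, and without animals 13 to 16 the log2 fold change of Pck1 in males was -0.08.

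Fbp1, fructose-1,6-bisphosphatase, was the steadiest member. In females it ran from 564 to 683 CPM (median 655) in sham and from 541 to 661 CPM (median 585) after PCB 52, with 3 of 6 exposed females below the lowest sham female. The log2 fold change was -0.11 ± 0.08 in females and 0.01 ± 0.07 in males. Sham males spanned 585 to 727 CPM (median 655) and PCB 52 males 611 to 700 CPM (median 645), with every exposed male inside the sham range.

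G6pc1 encodes the catalytic subunit of glucose-6-phosphatase, which releases free glucose from the cell. Sham females had 1056, 1497 and 1692 CPM at the lowest, median and highest, and PCB 52 females 796.8, 1131 and 1200 CPM. All 6 exposed females were below the sham mean of 1432 CPM, although only 2 were below the lowest sham female. The log2 fold change was -0.41 ± 0.12, or 1.33-fold lower, with an edgeR adjusted p of 0.341, or 0.822 without animals 13 to 16. Males varied more: sham males ran over 753, 940 and 1614 CPM and PCB 52 males over 492, 880 and 1264 CPM. Their log2 fold change of -0.33 ± 0.29 was about as large as its error, and 4 of 6 exposed males were below the sham mean. Without sham male replicate 1 it was -0.18.

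Slc37a4 brings glucose-6-phosphate into the endoplasmic reticulum, where G6pc1 acts on it. In females its level was 304, 348 and 402 CPM in sham and 244, 287.8 and 358 CPM after PCB 52 at the lowest, median and highest, and 4 of 6 exposed females lay below the sham range. Its log2 fold change was -0.24 ± 0.09 with an edgeR adjusted p of 0.44, or 0.843 without animals 13 to 16. Sham males had 432 to 510 CPM (median 464) and PCB 52 males 397 to 502 CPM (median 432), and the log2 fold change of -0.04 ± 0.08 changed sign, to 0.02, without animals 13 to 16.

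**Figure D2:**
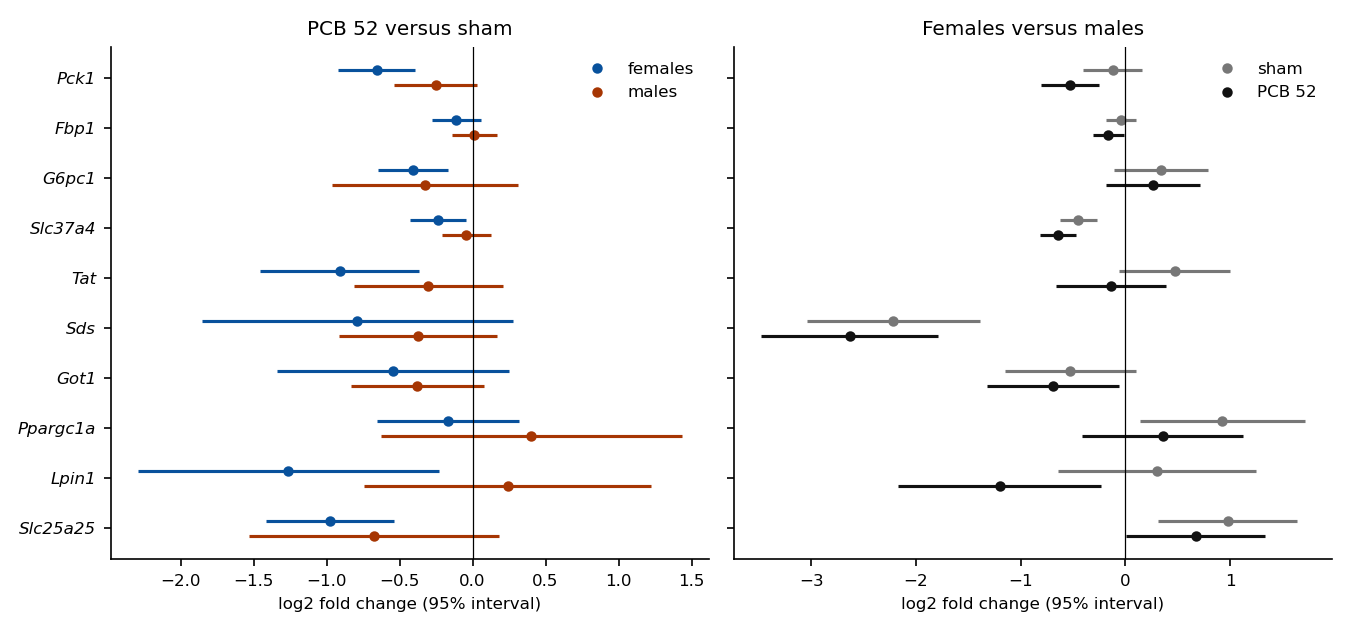
Fitted log2 fold change with its 95% interval (edgeR) for the 10 genes, PCB 52 versus sham in each sex on the left and females versus males in each exposure group on the right. In females all 10 points lie left of 0 on the left panel, and on the right panel the Sds points at -2.22 and -2.63 lie farthest from 0.

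The amino acid enzymes of the set were lower in their medians in exposed animals of both sexes. Tat, tyrosine aminotransferase, is a classic target of glucocorticoids in liver. It was at 940, 1453 and 1940 CPM (lowest, median, highest) in sham females and at 486, 713 and 1418 CPM after PCB 52. Again all exposed females but animal 20 lay below the sham range. The log2 fold change of Tat was -0.91 ± 0.25, or 1.88-fold lower, with an edgeR adjusted p of 0.388, or 0.0489 without animal 20 and 0.822 without animals 13 to 16. In males Tat ran over 822, 1049 and 1330 CPM in sham and 440, 794 and 1191 CPM after PCB 52, with 3 of 6 exposed males below the sham range and a log2 fold change of -0.30 ± 0.23, or -0.08 without animals 13 to 16 and -0.17 without animal 13 alone.

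Sds, serine dehydratase, turns serine into pyruvate. Sham females had 75.7, 130 and 222 CPM at the lowest, median and highest, and PCB 52 females 24.5, 54.1 and 169 CPM. The exposed females fell into 4 animals at 24.5 to 62.0 CPM, below the sham range, and animals 20 and 24 at 169 and 147 CPM, above the sham median. With that spread the log2 fold change of -0.79 ± 0.48 had an edgeR adjusted p of 0.608. In males the values were 374, 590 and 974 CPM in sham and 351, 507 and 612 CPM after PCB 52. All 6 exposed males lay below the sham mean of 658 CPM, but only 1 of them lay below the lowest sham male. Their log2 fold change was -0.37 ± 0.25, or -0.23 without sham male replicate 2, the highest sham male.

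Got1, the cytosolic aspartate aminotransferase, takes part in the shuttle that carries oxaloacetate out of the mitochondrion as aspartate. It showed the same split in exposed females as Sds, with animals 20 and 24 at 234 and 219 CPM and the other 4 at 76.4 to 106 CPM. Sham females ran over 116, 214 and 288.3 CPM. For Got1 in females the log2 fold change was -0.54 ± 0.36, with an edgeR adjusted p of 0.642, or 0.931 without animals 13 to 16. In males Got1 was at 193, 276 and 453 CPM in sham and 142, 214 and 272 CPM after PCB 52. All 6 exposed males were below the sham mean of 283 CPM, and 2 of them were below the lowest sham male. The log2 fold change of Got1 in males was -0.38 ± 0.21. Without animal 11 (sham male replicate 6), at 453 CPM, it was -0.20.

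Ppargc1a had few counts, 7 to 84 in a library. In sham females it was at 4.77, 6.40 and 10.2 CPM (lowest, median, highest) and after PCB 52 at 4.13, 5.79 and 9.52 CPM. In males it was at 1.00, 3.95 and 5.54 CPM in sham and 1.69, 4.09 and 9.12 CPM after PCB 52. In each sex the ranges of both groups overlapped, and the log2 fold changes were -0.17 ± 0.23 in females and 0.40 ± 0.47 in males. Without animal 21 the value for Ppargc1a in males was 0.07, and in females it ran from -0.33 without PCB 52 female replicate 2 to -0.05 without sham female replicate 2.

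Lpin1 encodes lipin-1, a phosphatidate phosphatase of lipid synthesis that also works with PGC-1α in the nucleus. It was the most variable member. Sham females ran from 99.8 over 180 to 598 CPM, and PCB 52 females from 70.1 over 95.2 to 214 CPM. All 6 exposed females were below the sham mean of 270 CPM, and 4 of them were below the lowest sham animal. Only sham animals 4 and 12, at 428 and 598 CPM, were above that mean, and the next sham female was at 208 CPM. In females the log2 fold change of Lpin1 was -1.26 ± 0.46, or 2.40-fold lower. Its edgeR adjusted p was 0.442, or 0.857 without animals 13 to 16. In males, sham animals had 157, 196 and 286 CPM and PCB 52 animals 118, 168 and 657 CPM, where animal 21 (replicate 5) alone stood above 237 CPM. The log2 fold change in males was 0.24 ± 0.44, and without animal 21 it was -0.38.

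Slc25a25 is a calcium-regulated carrier of ATP-magnesium and phosphate across the inner mitochondrial membrane. Sham females had 264, 452 and 569 CPM and PCB 52 females 156, 188 and 358 CPM at the lowest, median and highest. As for Pck1 and Tat, animal 20 was the only exposed female inside the sham range. Slc25a25 had a log2 fold change of -0.98 ± 0.20, or 1.97-fold lower, with an edgeR adjusted p of 0.284 and rank 9 of 10251 genes by p. That adjusted p was 9.8e-04 by DESeq2, 0.00721 in edgeR without animal 20 and 0.751 without animals 13 to 16. In males the values were 82.3, 182 and 389 CPM in sham and 58.8, 124 and 191 CPM after PCB 52. All 6 exposed males were below the sham mean of 212 CPM, but only 1 was below the lowest sham male. The log2 fold change in males was -0.68 ± 0.39, or -0.42 without animal 11, the highest sham male.

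Markers of other cells were read in the same animals, and none of those tested passed the edgeR test for exposure in females. Of 5 adipocyte genes 1 was tested, and of 5 erythroid genes 3. The erythroid list (4 of 5 genes measured, none at 0 throughout) summed to 43.1 to 150 CPM in sham females, with a median of 89.8, and to 16.04 to 141 CPM after PCB 52, with a median of 29.4. The Kupffer cell and macrophage list (6 of 6 genes) summed to 504 to 632 CPM in sham females and 419 to 577 CPM after PCB 52. The adipocyte list (5 of 5 genes, with Plin1 and Lep at 0) summed to 65.5 to 82.6 and 53.6 to 79.1 CPM. In each of these 3 lists the ranges of both groups overlapped. The part of blood and macrophage RNA in the members' differences was not tested.

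The responses of both sexes were then averaged and compared in a fit of all 24 libraries. In the average, 9 of 10 members were below 0 with a median log2 fold change of -0.45, against 48.4% of all tested genes below 0. Ppargc1a, at 0.12 ± 0.27, was the exception, at -0.04 without animal 21. edgeR called 0 of 10535 genes (0.0%) for the average, DESeq2 99 and limma-voom 7. At an unadjusted p under 0.05 it held 7 members (all but Fbp1, Ppargc1a and Lpin1), against 1625 genes or 15.4%. Pck1 had the smallest p of the members for the average, with a log2 fold change of -0.45 ± 0.10 and an edgeR adjusted p of 0.0855. By DESeq2 that adjusted p was 0.00326, by limma-voom 0.0473, in edgeR without animal 20 0.00693 and without animals 13 to 16 0.427. Slc25a25 followed with -0.82 ± 0.23 and Tat with -0.60 ± 0.18, at edgeR adjusted p of 0.146 and 0.164. DESeq2 called Slc25a25 in the average as well, with an adjusted p of 0.0263, while without animals 13 to 16 the edgeR adjusted p was 0.511.

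Females had the lower fitted response for all 10 members, against 51.1% of all tested genes. The median difference in log2 fold change, female minus male, was -0.35 over the members and -0.005 over all tested genes. The test of the difference itself called 0 of 10535 genes (0.0%) in edgeR, and 0 in DESeq2 and limma-voom. At an unadjusted p under 0.05 it held 2 members, Lpin1 and Pck1, against 239 genes or 2.27%, with edgeR adjusted p of 1 for each. The difference was -1.504 ± 0.65 for Lpin1, or -0.89 without animal 21, and -0.41 ± 0.19 for Pck1. The averaged and the sex-specific comparisons share their animals, so their values are not independent.

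The sexes were compared within each exposure group. Sds and Slc37a4 were lower in females than in males in both, and their sexes did not overlap. Slc25a25 was higher in sham females than in sham males, and Pck1 was lower in exposed females than in exposed males. The other members did not pass in either group. In all, edgeR called 3 of 10 members in sham animals, against 2139 of 10535 genes (20.3%), and 3 of 10 in PCB 52 animals, against 2093 genes (19.9%). Both counts lie near the share of all genes and say nothing particular about these 10.

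Sds differed most. The highest sham female, at 222 CPM, was below the lowest sham male, at 374 CPM, and the highest exposed female, at 169 CPM, was below the lowest exposed male, at 351 CPM. The log2 difference of Sds, female minus male, was -2.22 ± 0.40 in sham animals (4.65-fold lower, edgeR adjusted p 2.6e-04) and -2.63 ± 0.41 in exposed animals (6.20-fold lower, edgeR adjusted p 4.5e-05). For Slc37a4, female levels of 304 to 402 CPM lay below male levels of 432 to 510 CPM in sham animals, and 244 to 358 CPM lay below 397 to 502 CPM after PCB 52. The log2 difference of Slc37a4 was -0.45 ± 0.09 (edgeR adjusted p 2.0e-04) and -0.64 ± 0.09 (edgeR adjusted p 9.8e-07). Sexes did not overlap for 2 of 10 members in each exposure group, beside 11.5% of genes in sham and 9.84% in PCB 52 animals. Both genes passed under each left-out library and each other setting tried.

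Slc25a25 in sham females, at a mean of 422 ± 118 CPM (SD, n = 6), was 1.97-fold above sham males at 212 ± 111 CPM (SD, n = 6). Its log2 difference of 0.97 ± 0.32 had an edgeR adjusted p of 0.0328. This call was lost in 7 of 24 fits that left out a library (sham female replicates 2, 5 and 6 and sham male replicates 1, 3, 4 and 5), with an adjusted p of up to 0.0769, and without animals 13 to 16 at 0.0511. After PCB 52 the difference was 0.67 ± 0.32 with an edgeR adjusted p of 0.159. Pck1 in exposed females was below exposed males by a log2 difference of -0.53 ± 0.14 (edgeR adjusted p 0.00489), and all 24 fits with a library left out kept that call. In sham animals the Pck1 difference was -0.12 ± 0.14 (edgeR adjusted p 0.599), or -0.07 without sham male replicate 2. The test of the change between these values is the difference in response given above, which did not pass. Lpin1 in exposed animals was at -1.20 ± 0.46 with an edgeR adjusted p of 0.0766, which was 0.0393 by DESeq2, 0.0354 in edgeR without animal 20 and 0.35 without animal 21, where the difference was -0.59. The Kupffer cell and macrophage list summed to 371 to 469 CPM in sham males and 373 to 455 CPM in PCB 52 males, below the sums in females given above in sham animals and overlapping them after PCB 52, and its part in the sex differences was not tested.

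The deposited counts also allowed the genes to be followed from animal to animal. With each group's mean removed, Pck1 and Tat rose and fell together more closely than either did with any other tested gene. Sds paired with Got1, and Ppargc1a with Lpin1. G6pc1 and Slc25a25 had no partner among the members at an r of 0.5. Values are log2 CPM after TMM scaling, with a prior count of 2.

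How far an animal strayed from its group differed widely between members. The SD within groups on the log2 scale was 0.10 for Fbp1, 0.14 for Slc37a4 and 0.25 for Pck1, against a median of 0.23 over 10535 tested genes. It was 0.40 for G6pc1, 0.46 for Tat, 0.53 for Got1 and 0.57 for Slc25a25. Sds, Ppargc1a and Lpin1 were the most variable, at 0.68, 0.72 and 0.75, and 97.6%, 98.0% and 98.3% of tested genes had a smaller SD. Ppargc1a had 7 counts in the library with fewest, and the part of counting error in its spread was not tested.

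The highest and lowest animals of each group were counted in CPM without TMM scaling. By that measure animal 20 had the highest value of the 6 PCB 52 females for 8 of 10 members, all but G6pc1 and Ppargc1a. In the scaled log2 values animal 14 was above it for Fbp1 and animal 24 for Got1. Among PCB 52 males, animal 21 had the highest value for 6 members (Pck1, Slc37a4, Tat, Sds, Ppargc1a and Lpin1) and the lowest for Slc25a25. In sham males animal 11 was highest for 5 members and lowest for Ppargc1a, but in the scaled values animal 1 was above it for G6pc1. In sham females animals 2 and 8 were lowest for 5 and 4 members, but in the scaled values animal 2 was below animal 8 for Got1.

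**Figure D3:**
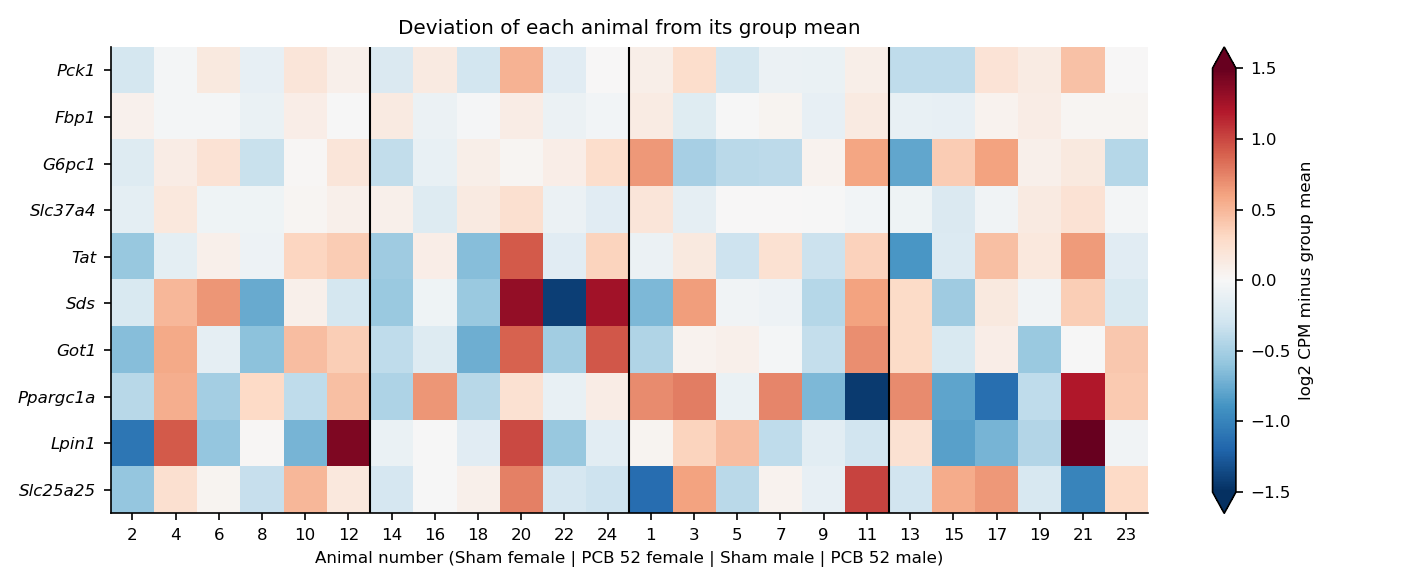
Deviation of each of 24 animals from its group mean, in log2 CPM, for the 10 genes (colour scale from -1.5 to 1.5, with values beyond it in the end colours). Animal 20 is above its group mean in all 10 genes, and Lpin1 and Ppargc1a are high together in animal 21.

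Of the 45 pairs of members, 37 had a positive Pearson r over the 24 animals and the median r was 0.25, against 49.9% positive and a median of 0.00 over 55487845 pairs of tested genes. An r of at least 0.5 was reached by 8 of 45 pairs, beside 3.24% of all pairs, and no member pair reached -0.5. The p-values below are from two-sided permutation tests with animals shuffled within groups, and they are not adjusted for the 45 pairs.

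Pck1 and Tat had a Pearson r of 0.88 and a Spearman rho of 0.83, with a permutation p of 1e-05 for r, the smallest that 100000 permutations can give, and 3e-05 for rho. Of 10534 other genes, Tat ranked as number 1 in its r with Pck1, and Pck1 as number 1 in its r with Tat. The r was 0.93 among 12 females and 0.83 among 12 males, and positive in all 4 groups. It stayed at 0.81 without the 2 animals farthest from the median of Pck1, and at 0.87 without animals 13 to 16.

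**Figure D4:**
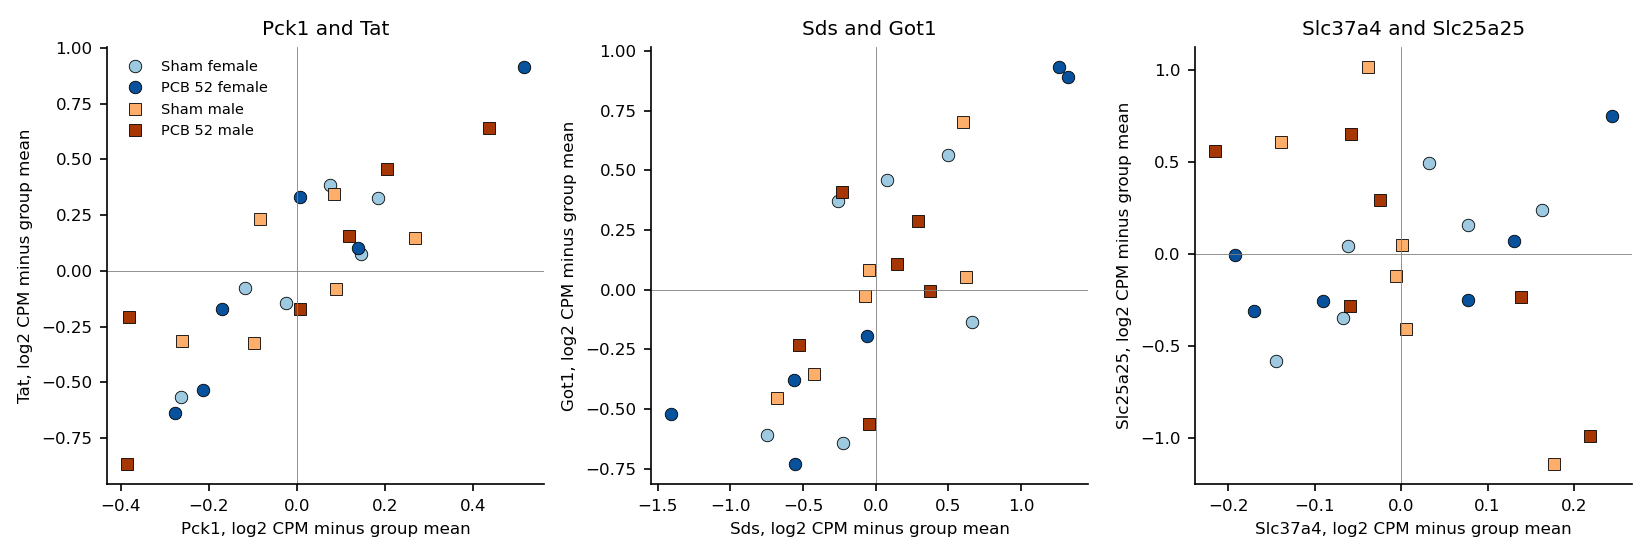
Each point is an animal, with both axes in log2 CPM minus the group mean, for Pck1 and Tat, Sds and Got1, and Slc37a4 and Slc25a25 (circles, females; squares, males; darker, PCB 52). Points of all groups follow a common rising band for Pck1 and Tat (r 0.88), whereas for Slc37a4 and Slc25a25 the females rise (r 0.72) and the males fall (r -0.79).

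Sds and Got1, both enzymes of amino acid use, had an r of 0.77 (rho 0.71, permutation p 6.3e-04 and 0.00118), and Got1 was the nearest of all tested genes to Sds. The r was 0.81 in females and 0.63 in males, and 0.72 without the 2 animals farthest from the median. Ppargc1a and Lpin1, coactivator and partner, had an r of 0.64 (rho 0.69, permutation p 4.0e-04 and 3.7e-04), with 0.71 in females, 0.67 in males and 0.59 without the 2 farthest animals.

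The 5 further pairs that reached 0.5 were weaker. Pck1 with Sds reached 0.55, Tat with Sds 0.53 and Tat with Got1 0.53, and among males alone these were 0.41, 0.35 and 0.03. Slc37a4 with Lpin1 reached 0.58 and with Fbp1 0.56, and the latter was 0.43 without animals 13 to 16. Without the 2 animals farthest from the median of the first gene, Slc37a4 with Lpin1 came to 0.39 and Pck1 with Sds to 0.41, so both rest on those animals at this threshold. For G6pc1 the closest was Tat at 0.44, and r with Pck1 was 0.31, and for Slc25a25 it was Got1 at 0.49.

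Slc37a4 and Slc25a25, a pair chosen after its values were seen, had an r of -0.19 over all animals that hid opposite signs. It was 0.72 in females (0.77 in sham and 0.71 in PCB 52) and -0.79 in males (-0.84 in sham and -0.82 in PCB 52). Opposite signs in females and males were found for 16 of the 45 pairs, 15 of them positive in females. They include Lpin1 with Slc25a25 (0.53 in females and -0.60 in males), Ppargc1a with Slc25a25 (0.21 and -0.63) and G6pc1 with Ppargc1a (0.09 and -0.56). The pair positive in males alone was G6pc1 with Fbp1 (-0.26 in females and 0.52 in males). No difference between the sexes in r was tested.

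**Figure D5:**
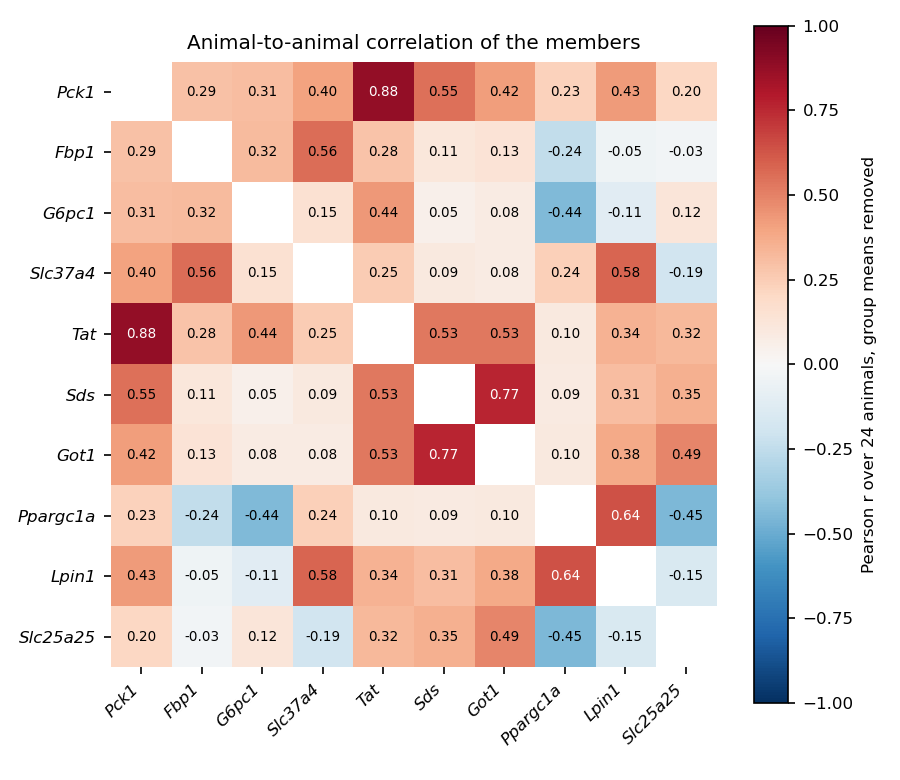
Pearson r between each pair of the 10 genes over 24 animals with group means removed (red, positive; blue, negative). The darkest cells are Pck1 with Tat (0.88) and Sds with Got1 (0.77), and the most negative are Ppargc1a with Slc25a25 (-0.45) and with G6pc1 (-0.44), both of which are above 0 in females alone.

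Leaving out provisional symbols, the tested genes most like Pck1 in these 24 values were Tat, Cmip (r 0.74), Tlnrd1 (0.73), Mcc (0.71) and Ahcy (0.71), and those most opposite were Rwdd2b (-0.81), Nfe2l2 (-0.78) and Tefm (-0.76). For Tat they were Pck1, Ehbp1l1 (0.74), Nacc1 (0.72), Tlnrd1 (0.70) and C11h21orf91 (0.70), and Rwdd2b (-0.85), Snrpb2 (-0.71) and Kpna5 (-0.69). Rwdd2b was thus the most opposite gene to both. For Ppargc1a they were Fam13a (0.87), Anapc1 (0.81), Ahr (0.80), Atosa (0.77) and Megf9 (0.71), and G0s2 (-0.73), Tgm4 (-0.73) and Snx11 (-0.72). These ranks describe the 24 animals and carry no test. For the 5 genes most like Ppargc1a, r was 0.49 (Ahr) to 0.84 (Anapc1) in females alone. In males alone it was 0.80 (Atosa) to 0.94 (Fam13a), and Fam13a was at 0.52 in females.

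Some members followed genes of related lists closely, and the examples here were chosen after their values were seen. Of 22 genes of amino acid breakdown and the urea cycle, 9 had an r of at least 0.5 with Got1 and 8 with Sds. For the other members this count ran from 0 (G6pc1 and Fbp1) to 5 (Tat), beside 3.24% of all pairs of tested genes. Cps1, which starts the urea cycle, had an r of 0.88 with Got1 and 0.74 with Sds, and ranked as number 1 of 10534 genes for Got1. Fkbp5, a glucocorticoid target, was the gene nearest to Lpin1, with an r of 0.83. Igfbp1, raised by fasting, had an r of 0.70 with Pck1 and 0.65 with Tat. Over all 18 genes of its list the median r was only -0.02 with Pck1 and 0.06 with Tat, and 3 genes reached 0.5 with each. With Sds and with Got1, 2 genes of that list had an r of -0.5 or below and 0 reached 0.5. For the CREB-linked kinase gene Sik1 r was 0.64 with Pck1 and 0.68 with Tat, and for the regulator Klf15 it was 0.67 with each. Arrdc3 ran opposite to Slc25a25, with an r of -0.79.

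Beside the members, 7 lists of related genes were read in the same fits, and edgeR called none of their genes for exposure. Like the members, these lists were chosen with earlier results of these data known. In females, 13 genes of the fed state and of fat synthesis had 12 log2 fold changes above 0, with a median of 0.56, and 9 had an unadjusted p under 0.05, all higher. The smallest p were for Acly (0.67 ± 0.13), Pklr (0.44 ± 0.12) and Fasn (0.61 ± 0.16), the ATP citrate lyase, the liver pyruvate kinase and the fatty acid synthase, and none passed. All 10 glucocorticoid-responsive genes were below 0, with a median of -0.54, and 8 had an unadjusted p under 0.05. Mt2A was at -0.63 ± 0.15, Mt1 at -0.36 ± 0.11 and Sgk1 at -0.52 ± 0.17, and none passed. In males the fed-state list had a median of 0.24 with 13 of 13 above 0, and the glucocorticoid list a median of 0.00 with 5 of 10 below 0.

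Of 21 tested hormone receptors and regulators of gluconeogenesis, 18 were below 0 in females, with 5 lower and 1 higher at an unadjusted p under 0.05. Klf15 was at -0.37 ± 0.10, Hnf4a at -0.24 ± 0.08 and Cebpb at -0.54 ± 0.18, and none passed. The 19 tested genes of the shared carbon steps, some of which also serve glycolysis, had a median of 0.00 in females. At an unadjusted p under 0.05, 1 was lower (Ldha, -0.28 ± 0.12) and 1 higher (Gpi, 0.19 ± 0.08), and Mdh2 was at -0.15 ± 0.11. Of 18 other fasting-responsive genes, 2 were higher and 2 lower at that p, with Arrdc3 at 1.16 ± 0.39, Igfbp1 at -0.68 ± 0.27 and Trib3 at -0.58 ± 0.25. Of 22 amino acid genes, 3 were lower (Slc38a2 -0.94 ± 0.32, Asl -0.28 ± 0.12 and Agxt -0.21 ± 0.10) and 0 higher. Of 15 clock genes, 2 were higher (Per3 0.30 ± 0.13 and Nr1d2 0.23 ± 0.11) and 1 lower (Nfil3 -0.33 ± 0.12). In the same fit, 476 of all tested genes were higher and 545 lower at that p.

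The counts of list genes called between the sexes stand beside 20.3% of all genes called in sham animals. edgeR called 8 of 22 amino acid genes in sham animals (3 higher and 5 lower in females), led by Asl at 0.85 ± 0.13, Agxt at 0.55 ± 0.10, Sdsl at -0.81 ± 0.16 and Arg1 at -0.42 ± 0.11. Sdsl is a close relative of Sds, and Asl and Arg1 are urea cycle enzymes. Of the 19 genes of the carbon steps, 4 were called in sham animals, near the share of all genes, Got2 (-0.36 ± 0.08) and the pyruvate carboxylase gene Pc (-0.37 ± 0.10) lower in females and Tpi1 (0.23 ± 0.07) and Mdh1 (0.32 ± 0.10) higher. Of the 13 fed-state genes, 7 were called, all higher in sham females, led by Acacb at 1.501 ± 0.15, Elovl6 at 3.30 ± 0.41, Pnpla3 at 3.03 ± 0.57 and Acly at 1.02 ± 0.24. Of the 21 regulators only Creb3l3 was called in sham animals, at 0.55 ± 0.11.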

How the data were processed

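Liver RNA of 24 rats was sequenced, with 1 library for each animal. The deposited values are raw counts per Entrez gene ID, in 1 table for each sex, not normalized per the file headers and values. FastQC, HISAT2 and build rn6 are named in the submitters' processing notes. The counting tool, annotation and strand setting are not given in the sources used here, so reads of overlapping or antisense genes cannot be told apart, and the labels' protocols name poly(A) capture or rRNA removal without saying which was used. Of 15319 IDs, 15230 matched a RefSeq symbol, and the 89 others held at most 2.30% of a library's counts.

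The counts were tested with edgeR 4.0.16 in R 4.3.3 (TMM factors 0.939 to 1.05, filterByExpr with a minimum count of 10 and total of 15, robust quasi-likelihood test, two-sided, Benjamini-Hochberg over all tested genes, threshold 0.05). Each sex was fitted in its own table, and the average, the difference of responses and the sex contrasts in a fit of all 24 libraries. DESeq2 1.42.0, limma 3.58.1 (voom), other scaling, filters and left-out libraries were alternatives, and leaving out animals 13 to 16 fitting the axis score and the block of consecutive animals were added after seeing the data. Both the fits and the correlations were tested on simulated data. CPM in the text are counts per 1000000 library counts, without TMM scaling. The axis is the leading principal component within groups, scored in each sex with the weights of the other and without the members.

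Correlations used log2 CPM (TMM, prior count 2) with group means removed, and 100000 permutations within groups. Among genes of the other lists, those called (at most 4, smallest p), or otherwise the 3 with the smallest p, were named where a list's values are given. The members and lists were chosen with earlier results of these data known.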

Additional observations from a re-analysis of the deposited data

Results flagged for a closer look

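In each of 40 sets of 6 values (10 genes in 4 groups), the gap between an extreme animal and its neighbour was compared with the whole range by Dixon's test, which by chance marks about 1 set in 20. It marked 5. Fbp1 in sham female replicate 4 (animal 8) was the lowest of its group at 564 CPM, with the next at 652 CPM. Got1 in sham male replicate 6 (animal 11) was the highest at 453 CPM, with the next at 289 CPM.

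Lpin1 was marked in both exposed groups. Animal 20, PCB 52 female replicate 4, had 214 CPM, with the next animal at 103 CPM, and animal 21, PCB 52 male replicate 5, had 657 CPM, with the next at 237 CPM. Animal 20 was marked for Slc25a25 as well, at 358 CPM, with the next exposed female at 225 CPM.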

How the results depend on the processing

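Counts of genes called moved with the tool: in females from 0 to 27 (DESeq2), 1 (limma-voom) and 1 (all 24 libraries in 1 fit), in males from 0 to 1 (DESeq2), and in the average from 0 to 99 (DESeq2), 7 (limma-voom) and 22 (adjusted p under 0.10). With each library left out, the count ran from 0 to 8 in females and 0 to 15 in the average, both highest without PCB 52 female replicate 4. Pairs with r of at least 0.5 were 15 in the 12 females alone against 8 over all 24 animals, and 7 to 9 under the other settings. The share of all gene pairs at that r was taken over 24 animals only, so 15 and 8 are not like counts. The cause of these moves was not tested.

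Among the members, signs changed for Slc37a4 in males, to 0.0226 without animals 13 to 16 and 0.0140 with the axis score fitted, for Got1 in the difference of responses, to 0.0290 without animals 13 to 16, and for the r of Slc37a4 with Slc25a25, 0.72 in females alone (the report counts such pairs). Leaving out a library changed signs within -0.0233 to 0.0381 for Fbp1 in males, -0.379 to 0.387 for Lpin1 in males, -0.0418 to 0.207 for Ppargc1a in the average, -0.229 to 0.0531 for G6pc1 in the difference of responses, -0.0906 to 0.469 for Lpin1 between sham sexes and -0.375 to 0.0045 for Tat between exposed sexes. None of these values passed the test. RLE scaling and both other filters changed no member's call or direction. The block of consecutively numbered animals was fitted only for the difference of responses and the sex contrasts, and it changed none there. The exposure results in each sex and in the average were not fitted with it, because the animals of a block share their exposure. That block is not a pairing given by the labels. No paired analysis was possible because replicate numbers follow accession order and pair no animals.

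Ppargc1a had 7 to 84 counts in a library, the fewest of the members.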

Other observations

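Consecutively numbered animals, a male and a female of the same exposure, had similar scores on the leading axis within groups, with an r of 0.92 over 12 such pairs, although the labels record no pairing. The score in each sex uses the weights of the other sex. The members' r over the same 12 pairs ran from -0.29 for Lpin1 to 0.35 for Slc25a25, and the median over 10535 tested genes was 0.19.

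Some glucocorticoid and fasting genes differed by sex within the exposed group in edgeR. Sgk1 was at -1.02 ± 0.24, Fkbp5 at -1.05 ± 0.27 and Errfi1 at -0.37 ± 0.12 (log2, female minus male), the 3 called of 10 glucocorticoid genes and all lower in exposed females. Of 18 other fasting-responsive genes 5 were called higher and 6 lower in exposed females, beside 19.9% of all genes called in either direction. The 4 with the smallest p were Pdk4 (2.46 ± 0.31), Igfbp1 (2.01 ± 0.35) and Sesn1 (0.88 ± 0.12), which were higher, and Cited2 (-1.35 ± 0.20), which was lower. These 4 were called in the same direction in sham animals, at 2.71 ± 0.31, 1.94 ± 0.35, 0.82 ± 0.12 and -1.64 ± 0.20. Of 21 regulators 3 were called: Klf9 (-0.59 ± 0.16) and Ppara (-0.62 ± 0.19) were lower in exposed females and Creb3l3 (0.40 ± 0.11) higher.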
